A study of Mus musculus with 6 samples.

Results

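The mitochondrial ribosomal proteins described here are the 77 genes whose symbol starts with Mrpl or Mrps followed by a digit, with rows named as pseudogenes left out, among 20596 rows of the expression table that carry a symbol. By symbol, 48 of them (Mrpl) belong to the large subunit and 29 (Mrps) to the small subunit. All 77 passed the filter on low values, so no member is missing from the 16169 genes tested. The samples were 266.6 cells, a mouse acinar tumour line of the pancreas that was grown in high-glucose DMEM with fetal bovine serum, and their total RNA was sequenced. In 3 CAF_CM libraries the cells had been kept for up to 40 days in medium conditioned by cancer-associated fibroblasts, and 3 libraries of the same line are labelled as control. The labels repeat the same treatment text, with its time, on the control samples and describe no control medium, so what the medium did and what the time in culture did cannot be told apart. Nor do they say that replicates were separate cultures, and the p-values cover only the spread between libraries, possibly a technical one.

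Mitochondria keep a small genome of their own, and its messenger RNAs, all of which encode subunits of the respiratory chain and the ATP synthase, are translated inside the organelle by a dedicated ribosome. The RNA of this ribosome is made in the mitochondrion, while its proteins are encoded in the nucleus, translated in the cytosol and imported. The small subunit reads the messenger RNA, the large subunit joins the amino acids, and the finished chain leaves by an exit tunnel that faces the inner membrane. Acinar cells secrete large amounts of digestive enzymes, a task that draws on mitochondrial ATP.

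The reads behind the values came to between 18622370 and 21002226 per library. Acinar markers were present, with Ctrb1, the chymotrypsinogen B gene, at 25180, 24850 and 20980 normalized counts in CAF_CM libraries and 46220, 44660 and 44360 in control libraries. Of 10 acinar markers 6 were lower in CAF_CM libraries and none was higher (limma, adjusted p under 0.05). Over all genes tested 16.1% were lower and 18.3% higher. The summed level of the acinar list ran from 33700 to 40185 in CAF_CM and from 65183 to 67693 in control libraries. Of 12 fibroblast markers 9 had a row, with a summed level of 3168 to 3656 in CAF_CM and 3520 to 3716 in control libraries. Of this sum Pdgfrb alone held at least 2793 in each library. Of the 7 fibroblast markers tested 1 was higher and 1 lower. Of 8 immune markers 3 had a row, with a summed level of 62.7 to 99.7 in CAF_CM and 95.4 to 107 in control libraries. Among these, Ptprc, a marker of all white blood cells, had at most 2.94 normalized counts in CAF_CM and 3.85 in control libraries. Of 6 endothelial markers 3 had a row, with a summed level of 158 to 191 in CAF_CM and 197 to 226 in control libraries. The CAF_CM libraries varied more among themselves, with a biological coefficient of variation of 8.23% in CAF_CM and 2.20% in control libraries. In a bulk sample, fewer cells of a type and less RNA per cell cannot be told apart.

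Most mitochondrial ribosomal protein genes did not pass the test between CAF_CM and control libraries, and a minority of named genes moved in either direction. Of the 77 members, 12 passed an adjusted p of 0.05 (limma, Benjamini-Hochberg adjustment over all genes tested), which is 15.6% of the family, against 34.4% of all genes tested. Mrpl13, Mrpl12 and Mrpl49 were higher, a direction that 18.3% of all genes tested took. Mrpl33, Mrpl14, Mrpl41, Mrps18c, Mrps10, Mrpl24, Mrpl54, Mrpl15 and Mrpl42 were lower, as were 16.1% of all genes tested. The other 65 members did not pass the test. The log2 fold changes of the family, taken on the log2(value + 1) scale, ran from -0.50 for Mrpl33 to 0.34 for Mrpl13, and the median of their absolute size was 0.0990, against 0.190 over all genes tested.

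**Figure D1:**
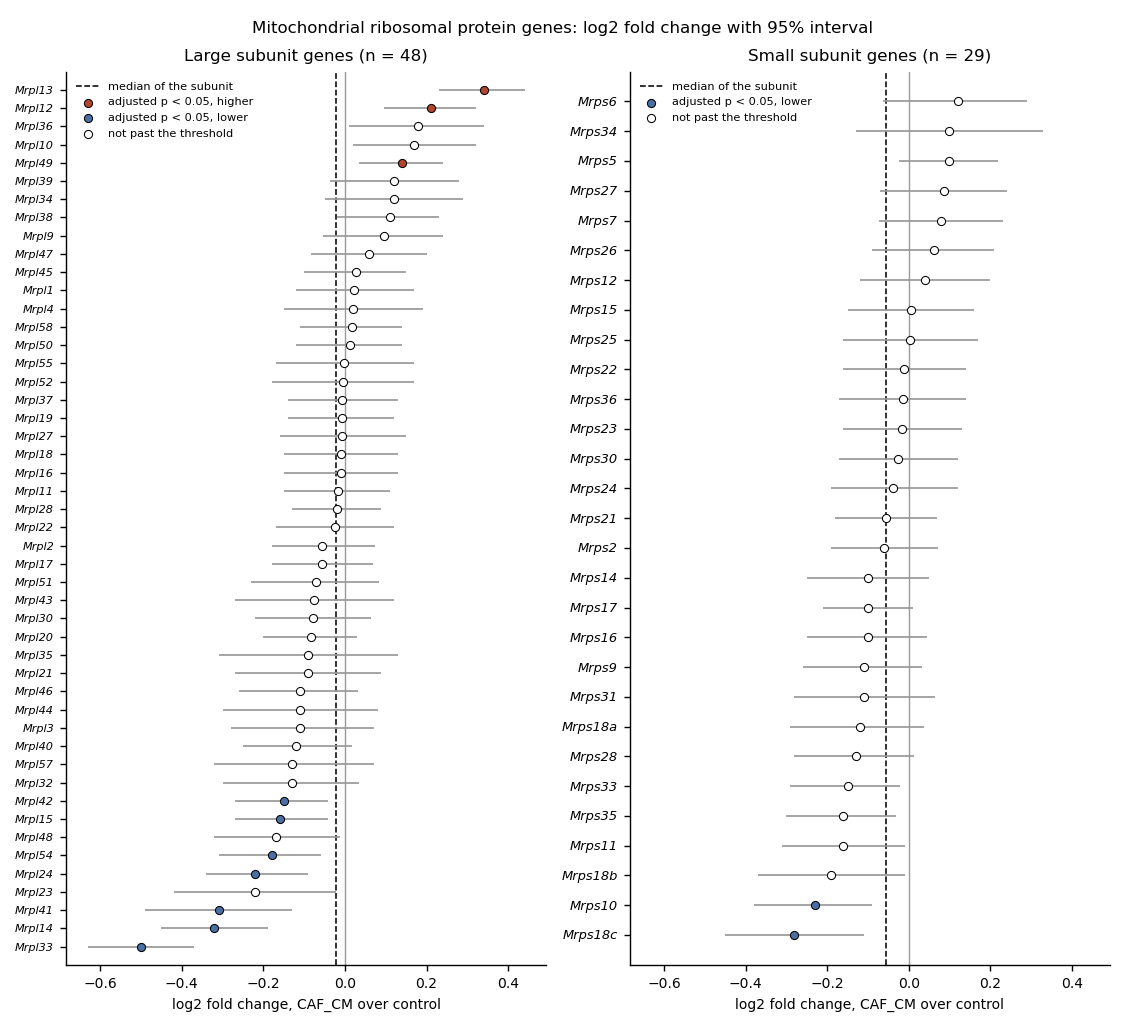
Log2 fold change (CAF_CM over control) of each large subunit gene (left, n = 48) and small subunit gene (right, n = 29) with its 95% interval from limma; filled points passed an adjusted p of 0.05 and the dashed line is the subunit's median. Mrpl13 at 0.34 and Mrpl33 at -0.50 lie at the ends of the family, and small subunit genes lie between -0.28 and 0.12.

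The large subunit held 10 of the 12 genes that passed, 3 higher and 7 lower, which is 20.8% of its 48 members. In the small subunit 2 of 29 members passed, Mrps10 and Mrps18c, both lower, which is 6.90%. Both shares lie below the 34.4% of all genes tested (18.3% higher and 16.1% lower). The median log2 fold change was -0.0224 for the large and -0.0563 for the small subunit, against 0.00459 for all genes tested, and 33 large subunit genes and 20 small subunit genes had a negative value. The median of the large subunit was positive without CAF_CM replicate 2 (0.00992) and after a correction for length and GC content of the transcripts (0.0148), so no direction is given for it. Over all genes tested the medians in these 2 fits were 0.0064 and 0.0326. The small subunit median stayed negative in both cases, at -0.0185 and -0.0212. With library totals in place of the deposited scaling, the medians were -0.0678 and -0.102 and that of all genes tested was -0.0406. Whether the subunits differed from each other was described by these counts and not tested.

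Symbols do not fully match places in the ribosome. The proteins of Mrps18a and Mrps30 sit in the large subunit, and that of Mrps36 is a subunit of the oxoglutarate dehydrogenase complex of the citric acid cycle and no ribosomal protein. Mrps18a had 1047, 871 and 941 normalized counts in CAF_CM libraries and 1039, 1094 and 977 in control libraries. Mrps30 had 593, 547.5 and 554 in CAF_CM libraries and 604, 567 and 556 in control libraries. In both genes the groups overlapped, with log2 fold changes of -0.12 (adjusted p = 0.218) and -0.027 (adjusted p = 0.785) in limma. Mrps36 had 577, 514 and 514 normalized counts in CAF_CM libraries and 547, 514 and 557 in control libraries, which also overlap (adjusted p = 0.909). With the first 2 genes moved to the large subunit and Mrps36 left out, the medians were -0.0256 for 50 large subunit genes and -0.0585 for 26 small subunit genes, and again 10 and 2 genes passed the threshold.

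Mrpl13 rose most. Its product is a protein of the large subunit with a bacterial counterpart. It had 3866, 3650 and 3912 normalized counts in CAF_CM libraries and 3078, 2996 and 2980 in control libraries. All CAF_CM libraries lay above all control libraries, and the lowest of them, replicate 2, exceeded the highest control library. The means were 3810 ± 140.1 in CAF_CM and 3018 ± 52.7 in control libraries (SD, n = 3 each), a rise of 26.2% (log2 fold change 0.34, SE 0.047, adjusted p = 3.88e-04 in limma). Per kilobase of transcript, Mrpl13 ranked first of the 77 members in CAF_CM libraries, at 3110 normalized counts per kilobase, and second in control libraries at 2470, behind Mrpl42. An exon of Mrpl13 overlaps one of Mtbp, a gene on the opposite strand that encodes a partner of the p53 regulator Mdm2, over 330 bases. Mtbp also rose, with 2147, 2192 and 2307 normalized counts in CAF_CM libraries and 1761, 1748 and 1672 in control libraries (0.36, adjusted p = 3.82e-04). No source used here says whether the counting used the strand, and reads from the shared stretch cannot be told apart.

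Mrpl12 rose as well. It encodes the protein of the stalk of the large subunit, which recruits translation factors, and the human protein has also been found to bind the mitochondrial RNA polymerase. Mrpl12 had 2091, 1943 and 2093 normalized counts in CAF_CM libraries and 1791, 1768 and 1751 in control libraries. The groups did not overlap, and CAF_CM replicate 2 was again the lowest of its group. The rise was 15.3% (log2 fold change 0.21, SE 0.050, adjusted p = 0.0087 in limma). Mrpl49, a large subunit protein that bacterial ribosomes lack, had 1845, 1834 and 1794 normalized counts in CAF_CM libraries and 1629, 1686 and 1662 in control libraries. These groups did not overlap either, and the rise was 9.96% (0.14, SE 0.047, adjusted p = 0.0422). The call on Mrpl49 was lost in 10 of 18 alternatives, among them edgeR (adjusted p = 0.0507), DESeq2 (0.135), library totals (0.149), and the omission of CAF_CM replicate 2 or 3 or of any control library (0.0514 to 0.156). In the annotation its exons overlap Syvn1, a ubiquitin ligase gene on the opposite strand, over 91 bases, and Syvn1 was lower (-0.45, adjusted p = 1.62e-04).

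Mrpl33 fell most. It encodes a small protein of the large subunit with a bacterial counterpart. It had 619, 598 and 588.5 normalized counts in CAF_CM libraries and 854, 882.5 and 825 in control libraries. The 3 CAF_CM libraries lay close together, and all of them were far below the lowest control library. The means were 602 ± 15.5 in CAF_CM and 854 ± 28.8 in control libraries (SD, n = 3 each), so that Mrpl33 fell by 29.5% (log2 fold change -0.50, SE 0.059, adjusted p = 1.36e-04 in limma). Mrpl14, which lies on the face of the large subunit that meets the small one, had 552, 586 and 575 normalized counts in CAF_CM libraries and 739.7, 698 and 703 in control libraries. No CAF_CM library reached a control library, and the log2 fold change was -0.32 (SE 0.061, adjusted p = 0.00211). Its exons overlap Tmem63b on the opposite strand over 106 bases, and Tmem63b, which encodes an ion channel opened by membrane tension, was lower too (-0.22, adjusted p = 0.00499). Mrpl12, Mrpl13, Mrpl14 and Mrpl33 kept their calls and directions in all 18 alternatives, with log2 fold changes between 0.16 and 0.31, 0.29 and 0.42, -0.37 and -0.23, and -0.55 and -0.46 in that order.

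Stretches upstream of Mrpl12 and Mrpl33 are shown because these 2 genes moved in opposite directions in every alternative and their start sites are annotated. They are RefSeq sequence of the mouse build GRCm38.p6, the plus strand, and end at the base before the start site, from chr11:120484487-120484636 for Mrpl12 and chr5:31613801-31613950 for Mrpl33. Capitals mark a match to the motif of NRF1, a factor known for driving nuclear genes of mitochondria, searched on both strands as GCGCA, any base and GCGC.
Mrpl12: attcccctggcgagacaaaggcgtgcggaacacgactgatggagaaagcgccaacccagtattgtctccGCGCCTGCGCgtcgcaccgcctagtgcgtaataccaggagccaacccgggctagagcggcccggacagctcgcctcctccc
Mrpl33: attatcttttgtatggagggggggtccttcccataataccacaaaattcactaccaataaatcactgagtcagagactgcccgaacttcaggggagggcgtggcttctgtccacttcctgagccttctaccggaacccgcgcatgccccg
The match in Mrpl12 begins 81 bases before the start site, and the stretch of Mrpl33 holds none. Mrpl14, also lower in every alternative and with an annotated start, is not shown. Its promoter held the NRF1 motif, so the pair shown does not stand for higher and lower genes in general.

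Promoters from 250 bases before to 50 after the start were found for 68 of the 77 members, with 74 start sites. The NRF1 motif was found in 17.6% of them, against 9.38% of the promoters of genes tested and 4.60% of all promoters in the table. The ETS motif CCGGAAG, bound by the GABP complex among others, was in 33.8% of member promoters, against 16.7% of those of genes tested and 8.86% of all. The motif AANATGGC of YY1, a zinc finger factor that also acts on mitochondrial genes, was in 28.4%, against 7.81% and 6.05%. The E-box CACGTG, which MYC and other factors bind, was in 9.46%, against 9.80% and 7.15%. All these shares are of start sites and not of genes. The 7 member sites with an E-box include several close starts of Mrpl2, each counted separately. Motifs were searched on both strands, and none of the 4 contains another. Of the members that passed the test, 2 higher and 7 lower genes had a promoter, while Mrpl13, Mrpl15 and Mrpl54 had none. Among those found, Mrpl12 and Mrpl14 had the NRF1 motif, Mrpl24, Mrpl42 and Mrpl49 that of YY1, and Mrpl33 and Mrps18c that of ETS. Mrps18c also had the E-box. Each of the NRF1 and YY1 motifs was thus found beside a gene that was higher and beside one that was lower. A match describes the letters only, and binding was not measured.

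Of the other large subunit genes that fell, Mrpl41 had 293, 298 and 317 normalized counts in CAF_CM libraries and 382, 402 and 345 in control libraries, with a log2 fold change of -0.31 (SE 0.082, adjusted p = 0.0127). The human protein of Mrpl41 has also been described as a binding partner of Bcl2. Mrpl24, a protein near the exit tunnel with a bacterial counterpart, had 634, 649 and 661 normalized counts in CAF_CM libraries and 764, 769 and 728.5 in control libraries (-0.22, SE 0.058, adjusted p = 0.0137). Groups overlapped in neither gene. Mrpl54, a mitochondrial protein beside the base of the stalk, had 1320, 1194 and 1232 normalized counts in CAF_CM libraries and 1475, 1403 and 1373 in control libraries (-0.18, SE 0.057, adjusted p = 0.0281). Mrpl15, a conserved protein of the large subunit core, had 963, 931 and 968 in CAF_CM libraries and 1064, 1054 and 1069 in control libraries (-0.16, SE 0.052, adjusted p = 0.0372). For Mrpl42, a protein that bacterial ribosomes lack, the values were 1744, 1598 and 1681 in CAF_CM libraries and 1877, 1821 and 1888 in control libraries (-0.15, SE 0.051, adjusted p = 0.0376). In these 3 genes too every CAF_CM library was below every control library, with replicate 2 the lowest.

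Each of these 5 calls was lost in some alternatives. After the length and GC correction Mrpl54 was at -0.0935 (adjusted p = 0.146), Mrpl24 at -0.15 (0.0533) and Mrpl42 at -0.12 (0.0532), and DESeq2 did not call Mrpl15 (0.0888) or Mrpl42 (0.0591). With single libraries left out, those on Mrpl41 and Mrpl24 were lost without control replicate 1 (adjusted p = 0.058 and 0.065) or control replicate 2 (0.0746 and 0.0728). Those on Mrpl15, Mrpl42 and Mrpl54 were lost without CAF_CM replicate 2 (0.0589, 0.0749 and 0.0551) or 3 (0.0597, 0.0747 and 0.0767) and without each control library in turn (0.11 to 0.124, 0.087 to 0.135 and 0.058 to 0.132). Mrpl24 shares 594 bases of exon with Rrnad1, a gene on the opposite strand that was also lower (-0.38, adjusted p = 0.00247). In all, exons of 32 members overlap another annotated gene, and in 22 that gene codes for a protein. Of the genes that passed, Mrpl12 overlaps the noncoding Gm16755 on the opposite strand over 200 bases, with the same uncertainty in its counts. Mrpl33 and Mrps18c overlap the noncoding or unclassified Gm43809 and Gm43511 over 261 and 250 bases. These lie on the same strand, so strand could not separate the shared reads. Gm43511 averaged 15.4 normalized counts in CAF_CM and 15.3 in control libraries. Gm43809, the partner of Mrpl33, had no row under that symbol, so its level is not known.

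In the small subunit, Mrps18c, the mitochondrial counterpart of a bacterial platform protein, had 490.1, 446 and 407 normalized counts in CAF_CM libraries and 541, 557 and 524 in control libraries. All CAF_CM libraries were below control, a log2 fold change of -0.28 (SE 0.078, adjusted p = 0.0179 in limma). Its paralogues did not pass. Mrps18b had 552, 456 and 529.6 normalized counts in CAF_CM libraries and 607, 544 and 601 in control libraries, which overlap (-0.19, adjusted p = 0.0971), and its value passed with library totals (-0.24, adjusted p = 0.0473) and without CAF_CM replicate 1 (-0.25, adjusted p = 0.0241). Mrps18a passed without that library too (-0.19, adjusted p = 0.0216). Mrps10, a protein of the head of the small subunit, had 702, 621 and 697 normalized counts in CAF_CM libraries and 822, 784.5 and 768 in control libraries, with no overlap (-0.23, SE 0.066, adjusted p = 0.0183). The calls on Mrps18c and Mrps10 were lost without control replicate 1 (adjusted p = 0.0662 and 0.0912) or 2 (0.0808 and 0.0624), and that on Mrps18c without CAF_CM replicate 3 (0.069). After the length and GC correction Mrps10 was at -0.16 (adjusted p = 0.0507).

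**Figure D2:**
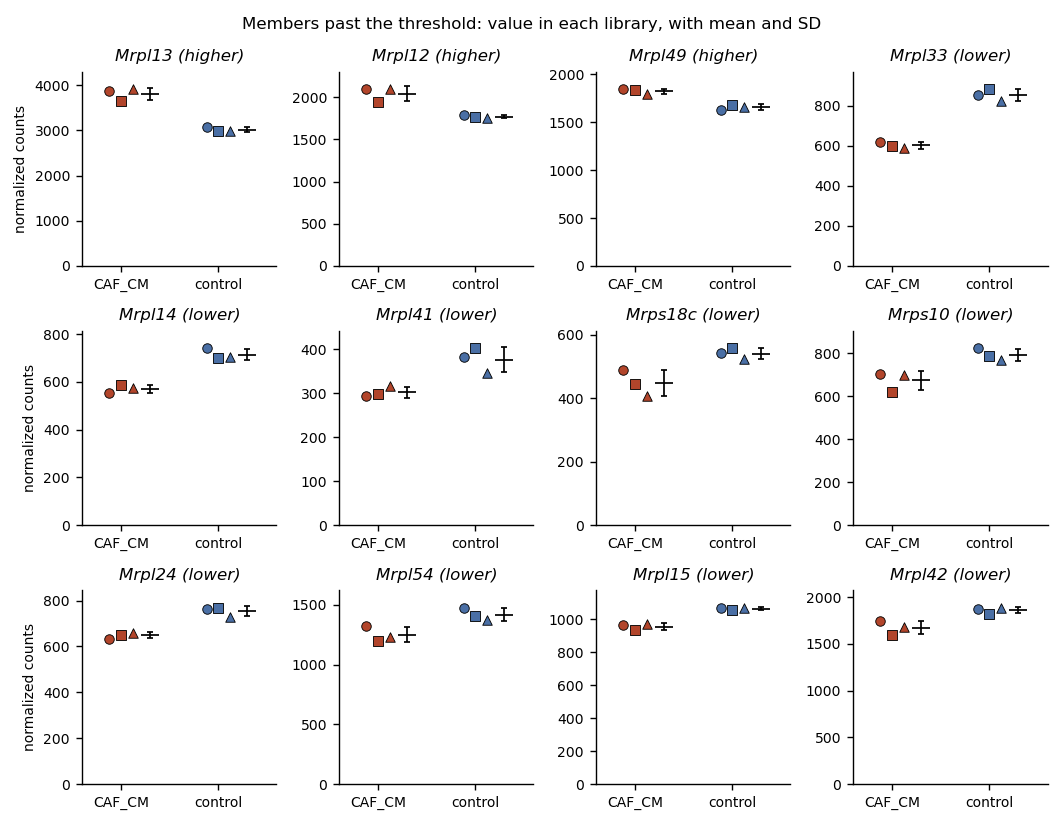
Normalized counts of the 12 members past the threshold in each library (circle, square and triangle for replicates 1, 2 and 3), with mean and SD beside them and each axis starting at 0. In every panel the CAF_CM libraries lie on one side of the control libraries, as in 47.7% of all genes tested. The 12 genes were chosen by the test on these same values. Mrpl33 averaged 602 in CAF_CM and 854 in control libraries.

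Several members with a known special function did not pass the test. Mrps12, which lies at the decoding centre, had 883, 773 and 773 normalized counts in CAF_CM libraries and 832, 784.5 and 744 in control libraries (log2 fold change 0.0394, 95% interval -0.12 to 0.20, adjusted p = 0.706 in limma). Mrpl45, which ties the large subunit to the inner membrane at the tunnel exit, had 912, 877.5 and 835 in CAF_CM libraries and 841, 881 and 853 in control libraries (0.0269, interval -0.10 to 0.15, adjusted p = 0.757). Mrpl58, a hydrolase within the large subunit that frees stalled chains, had 787, 740.4 and 786 in CAF_CM libraries and 774, 754 and 757 in control libraries (0.017, interval -0.11 to 0.14, adjusted p = 0.847). In each of the 3 the groups overlapped, and the intervals leave room for changes of about the size of Mrpl49. Mrpl36, the counterpart of a small bacterial protein, had 353, 337 and 334 normalized counts in CAF_CM libraries and 318, 289.7 and 299 in control libraries. These groups did not overlap, but the value of 0.18 missed the threshold (adjusted p = 0.0962), which it passed when length and GC content were corrected for (0.25, adjusted p = 0.0165).

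By place in the ribosome, as known from its structure, the genes for the stalk and its base moved in both directions. Mrpl12 was higher, Mrpl54 was lower, and the other two did not pass the test. Mrpl10, which holds the stalk, had 1081, 914 and 965 normalized counts in CAF_CM libraries and 858, 875 and 895 in control libraries, with no overlap and a log2 fold change of 0.17 (adjusted p = 0.0745). Mrpl11, at the base of the stalk, had 918, 875 and 979 in CAF_CM libraries and 913, 946 and 943 in control libraries, which overlap (adjusted p = 0.852). The counts by place and origin stand beside 18.3% higher and 16.1% lower of all genes tested. Of 7 proteins around the exit tunnel 1 was lower, Mrpl24, and of 8 proteins of the central protuberance, which bridges the subunits, none passed. In the small subunit 1 of 8 head proteins was lower, Mrps10, with 7 of the 8 values negative, and 1 of 4 platform proteins, Mrps18c. Members with a bacterial counterpart numbered 46, of which 2 were higher and 6 lower with a median log2 fold change of -0.0464. Of 30 members specific to mitochondria 1 was higher and 3 were lower, and their median was -0.0494.

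A wider count is that of members whose groups did not overlap, whatever the test. In 7 members all CAF_CM libraries lay above all control libraries, 6 in the large and 1 in the small subunit, and 24.8% of all genes tested did so. In 18 members all CAF_CM libraries lay below, 11 in the large and 7 in the small subunit, as did 22.9% of all genes tested. Besides the 12 that passed, Mrpl10, Mrpl36, Mrpl38 and Mrps5 were above, and Mrpl20, Mrpl23, Mrpl46, Mrpl48, Mrps11, Mrps17, Mrps28, Mrps33 and Mrps35 were below, with adjusted p between 0.0566 for Mrps35 and 0.235 for Mrpl20. Mrps35, a protein of the head of the small subunit, had 768, 721 and 801 normalized counts in CAF_CM libraries and 842, 885.5 and 838 in control libraries, and it passed as lower in edgeR on recovered reads, with library totals, after the length and GC correction and without CAF_CM replicate 1 or 3. The 5 rows named as pseudogenes, which can share reads with Mrpl23, Mrpl27, Mrpl48 and Mrps36, had 35.1 to 134 normalized counts in CAF_CM and 37.75 to 151 in control libraries, and none passed.

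Mrps11 and Mrpl46, 1 from each subunit, lie head to head on chromosome 7. Their starts in RefSeq are 42 bases apart on opposite strands. The bases between the starts are shown because both genes can be read from this stretch, chr7:78783090-78783130 of GRCm38.p6 on the plus strand. No motif searched was found in it. The longer promoter of Mrps11 held the YY1 motif, and that of Mrpl46 held none of the motifs.
Mrps11 and Mrpl46: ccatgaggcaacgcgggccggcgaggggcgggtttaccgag
Mrps11, a platform protein with a bacterial counterpart, had 563, 493 and 536 normalized counts in CAF_CM libraries and 598, 585 and 591 in control libraries. Mrpl46, of the central protuberance, had 446, 424 and 456 in CAF_CM libraries and 487, 465 and 482.5 in control libraries. In both genes every CAF_CM library was below every control library, and neither passed the test (log2 fold change -0.16, adjusted p = 0.0935, and -0.11, adjusted p = 0.206). In the GENCODE annotation, with exons of all transcripts counted, the 2 genes overlap by 173 bases. The 2 sources thus do not place all starts alike, and part of the reads of these genes cannot be told apart.

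The family was not at one level. Per kilobase of the principal transcript, the control means ran from 130.0 normalized counts per kilobase for Mrps25 to 2800 for Mrpl42, with medians of 549 over the large and 522 over the small subunit. Mrpl42 and Mrpl13 were highest in the large subunit, at 2510 and 3110 normalized counts per kilobase in CAF_CM and 2800 and 2470 in control libraries, so Mrpl13 was the higher of the pair in CAF_CM and Mrpl42 in control libraries. Mrps21 and Mrps15, both with bacterial counterparts, were highest in the small subunit, at 1980 and 1190 in CAF_CM and 2060 and 1180 in control libraries. Mrps21 had 1013, 946 and 946 normalized counts in CAF_CM libraries and 1048, 999.8 and 973 in control libraries, which overlap (adjusted p = 0.484). Mrps15 had 1202, 982 and 1155 in CAF_CM libraries and 1107, 1093 and 1117 in control libraries, which overlap as well (adjusted p = 0.968). These levels rest on the annotated length, which need not be that of the transcript in these cells.

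Summed over the large subunit, the members had 49395, 45122 and 47643 normalized counts in CAF_CM libraries and 48466, 47543 and 46740 in control libraries, and over the small subunit 21922, 19569 and 20842 in CAF_CM and 21908, 21358 and 21330 in control libraries. Both sums overlapped between the groups, and CAF_CM replicate 2 held the lowest value of each. The ratio of the large to the small sum, which does not depend on the scaling of a library, was 2.253, 2.306 and 2.286 in CAF_CM libraries and 2.212, 2.226 and 2.191 in control libraries. All CAF_CM ratios lay above all control ratios, with means of 2.282 ± 0.0268 in CAF_CM and 2.21 ± 0.0176 in control libraries (SD, n = 3 each), a difference of 0.0717. Without Mrpl13, left out after its values were seen, the ratios were 2.077, 2.119 and 2.098 in CAF_CM libraries and 2.072, 2.086 and 2.052 in control libraries, and the groups overlapped. Of all reads, the family took 0.342% ± 0.0155 in CAF_CM and 0.358% ± 0.0086 in control libraries (SD, n = 3 each).

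**Figure D3:**
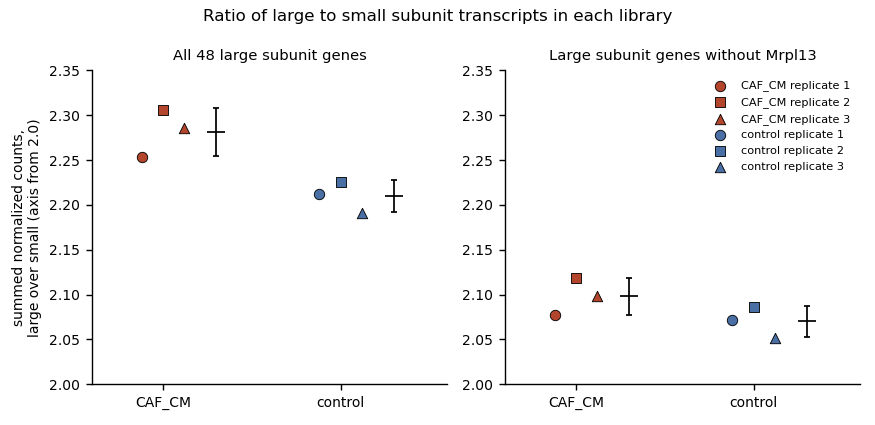
Ratio of the summed normalized counts of large to small subunit genes in each library, with all 48 large subunit genes (left) and without Mrpl13 (right), with mean and SD; the vertical axis starts at 2.0. The ratios lie between 2.253 and 2.306 in CAF_CM and between 2.191 and 2.226 in control libraries on the left, and the groups overlap on the right.

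CAF_CM replicate 2 stood apart across the family. It was the lowest CAF_CM library in 61 of 77 members, or 79.2%, against 35.9% of all genes tested, and replicate 1 was the highest in 53. The median log2 difference from the control mean was 0.0190, -0.122 and -0.0398 in CAF_CM replicates 1, 2 and 3 for the large subunit and 0.0439, -0.127 and -0.0535 for the small subunit. Over all genes tested the same medians were 0.00987, 0.00661 and 0.00517. The SD of log2 values had a median of 0.0897 in CAF_CM and 0.0487 in control libraries, and it was larger in CAF_CM for 60 of 77 members. Over all genes tested this median was 0.121 in CAF_CM and 0.0669 in control libraries, and the SD was larger in CAF_CM for 11723 of 16169 genes. Without CAF_CM replicate 2, 5 members were higher (Mrpl13, Mrpl12, Mrpl10, Mrpl9 and Mrpl39) and 6 lower (Mrpl33, Mrpl14, Mrpl41, Mrpl24, Mrps10 and Mrps18c), which is 14.3% of members, against 36.6% of all genes tested in that fit. Without CAF_CM replicate 1, 3 were higher and 19 lower, or 28.6%, against 40.2% of all genes. Without control replicate 1, and likewise without control replicate 2, only Mrpl12 and Mrpl13 were higher and Mrpl14 and Mrpl33 lower, while the share of all genes called was 21.8% and 22.8%.

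Cytosolic ribosomal proteins showed the same order of CAF_CM libraries. Replicate 2 was the lowest CAF_CM library in 77 of 85 of them, and their median log2 differences were 0.0643, -0.0973 and -0.0176 in CAF_CM replicates 1, 2 and 3. Of the 85, 7 were higher and 12 lower, which is 22.4%, against 34.4% of all genes tested, 18.3% higher and 16.1% lower. Their median log2 fold change was -0.0172. Rplp0, a protein of the cytosolic stalk, was higher (0.36, adjusted p = 0.00106), and Rps27l, a paralogue of Rps27, was lower (-0.35, adjusted p = 5.13e-04). The nuclear genes of the respiratory chain and the ATP synthase, whose complexes also contain the products of the mitochondrial ribosome, were lower in all 3 CAF_CM libraries, at -0.0841, -0.172 and -0.177. Of these 81 genes 1 was higher and 36 lower, which is 45.7%, against the same 34.4% of all genes tested. Among them Cox7b, a subunit of cytochrome c oxidase, had 2022, 2052 and 2021 normalized counts in CAF_CM libraries and 2954, 2801 and 2913 in control libraries (-0.51, adjusted p = 3.92e-05). Transcripts of the family are short, with a median length of 1316 bases against 2682.5 over genes tested. Those of the respiratory list, at 861, and of the cytosolic ribosomal proteins, at 878, are short too. Longer transcripts tended to have higher log2 fold changes (Spearman rho 0.221 across genes tested, which are not independent replicates). Among the 77 members rho was 0.17. A role of length in the changes of these lists was not tested. After correction for length and GC content 11 members were higher and 9 lower, which is 26.0% of members, against 38.2% of all genes tested in that fit.

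**Figure D4:**
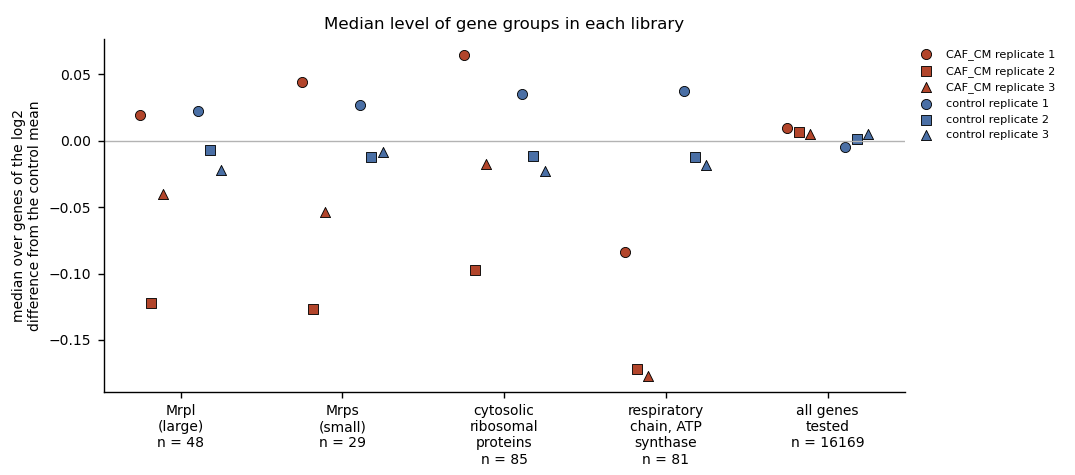
Median over the genes of a group of the log2 difference from the control mean, for each library and 5 gene groups (n, number of genes tested). CAF_CM replicate 2 is lowest for both subunits and the cytosolic ribosomal proteins, whereas all 3 CAF_CM libraries are below the control libraries for the respiratory chain and ATP synthase genes.

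Other genes of mitochondrial translation were counted in the same way, beside the 34.4% of all genes tested that passed, 18.3% higher and 16.1% lower. Of 5 proteins of the mitochondrial ribosome under other symbols, none was higher and 2 were lower, Chchd1 (784, 763 and 871 normalized counts in CAF_CM libraries and 1070, 997 and 1027 in control libraries, log2 fold change -0.36, adjusted p = 0.00164 in limma) and Ptcd3 (-0.18, adjusted p = 0.0146), both of the small subunit. Of 28 assembly factors and enzymes that modify its RNA, 6 were lower and none higher, led by Mettl17, which assists assembly of the small subunit, with 413, 379 and 375 in CAF_CM libraries and 561, 511 and 536 in control libraries (-0.46, adjusted p = 6.70e-04). Among 16 translation factors 3 were higher and 2 lower. Tufm, the elongation factor that brings transfer RNA to the ribosome, had 3405, 3091 and 3162 in CAF_CM libraries and 2881, 2771 and 2846 in control libraries (0.18, adjusted p = 0.0164), and Mss51, the homologue of a yeast activator of mitochondrial translation, was lower (-0.78, adjusted p = 0.00229). Groups overlapped in none of these named genes.

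The same shares of all genes tested, 18.3% higher and 16.1% lower, are the background to the lists that follow. Transcription and RNA processing in mitochondria gave 2 higher and 7 lower genes of 19. Polrmt, the mitochondrial RNA polymerase, had 987, 1047 and 1122 normalized counts in CAF_CM libraries and 1345, 1382 and 1386 in control libraries (-0.38, adjusted p = 5.98e-04), and the DNA helicase gene Twnk was higher (0.19, adjusted p = 0.0147), although its exons overlap Mrpl43 on the opposite strand over 507 bases. Of 19 regulators of mitochondrial genes 12 were higher and 1 was lower. Gabpa, the DNA-binding subunit of GABP, had 3027, 3110 and 3058 in CAF_CM libraries and 2490, 2339 and 2440 in control libraries (0.34, adjusted p = 3.39e-04), Yy1 was higher (0.33, adjusted p = 4.47e-04), and Myc had 2516, 2023 and 2485 in CAF_CM libraries and 2741, 2674 and 2811 in control libraries (-0.23, adjusted p = 0.0324). Of 29 genes of protein import 4 were higher, led by the receptor gene Tomm70a (0.43, adjusted p = 1.07e-04), and 5 lower, led by Timm21, of the inner membrane channel (-0.44, adjusted p = 0.00168), in all 31.0%, near the share of all genes. Among 12 chaperones and proteases of the matrix and inner membrane, the folding chaperone gene Hspd1 was higher (0.37, adjusted p = 0.00286) and 3 were lower, with Lonp1, a protease, at -0.17 (adjusted p = 0.00916), in all 33.3%, which is also near it.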

How the data were processed

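Libraries were made from total RNA of 6 samples with a TruSeq kit of Illumina, per the labels' protocols. Tools named in the submitters' processing notes are FastQC and DESeq2, with hg19, a human build; aligner, counter, strand setting and mouse build are not given in the sources used here. The deposited table holds a signal per gene and library: read counts that the authors had divided by 1 factor per library (normalized counts). In each library 100% of values were whole reads within 0.001 of a read after division by the worth of 1 read (0.949 to 1.05). Of 20764 rows, 168 without a symbol (0.153% to 0.261% of reads) were left out. No row had under 10 reads in all.

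Members and gene lists were chosen with earlier results of these data known. limma 3.58.1 (R 4.3.3) was fitted to log2(value + 1) with a variance trend, over genes that reached a value of 10 in 3 or more libraries, which understates fold changes of low genes. Named members are all those past the threshold, the 3 largest changes each way, the 2 highest levels per kilobase in each subunit and 9 chosen for their roles; of other lists, the gene of lowest adjusted p each way (2 for regulators and for ribosomal proteins under other symbols). Members whose groups did not overlap, those of the stalk and those that passed only in an alternative were named after their values were seen. Alternatives were edgeR 4.0.16, DESeq2 1.42.0 and limma-voom on recovered reads, other scalings, pseudocounts and filters, group weights, a length and GC correction (lengths for 96.3% of genes tested), a block for the replicate number and the omission of each library. The fit was tested on simulated data. Exons and lengths came from the GENCODE annotation of GRCm38, with the APPRIS principal transcript where given, and promoters from RefSeq. Symbols are as in the table.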

Additional observations from a re-analysis of the deposited data

How the results depend on the processing

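Counts of members past the threshold moved by over 1.5 times in these cases: 11 higher after the length and GC correction, 16 lower with library totals, and, with single libraries left out, 2 to 5 higher and 2 to 19 lower. Over all genes the split was 2953 higher and 2602 lower, 2231 and 3179 with library totals, and 3474 and 2470 after the length and GC correction. Subunit medians moved by less than the spread between CAF_CM libraries in every alternative. The ratio difference of 0.0717 was 0.0284 without Mrpl13, and 0.0597 to 0.0859 with single libraries left out, alternatives chosen after seeing the data. The labels do not say whether replicate numbers pair the libraries. Deviations of same-numbered libraries correlated at 0.0703, 0.0291 and 0.0305, low values that cannot exclude a pairing. With the replicate block 2 members were higher and 11 lower, or 16.9%, against 36.6% of all genes tested. In that limma fit Mrps18b passed (adjusted p = 0.043) and Mrpl49 did not (0.0525).

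Among named members, signs turned only in 7 that passed in no alternative: with library totals, Mrpl45 (-0.0186), Mrpl58 (-0.0285), Mrps12 (-0.00608) and Mrps15 (-0.0409); in limma-voom, Mrps15 (-0.00251); after the length and GC correction, Mrps21 (0.0335) and Mrps36 (0.0277). Over the fits without 1 library, the range was -0.00366 to 0.0599 for Mrpl45, -0.025 to 0.0804 for Mrps12, -0.0533 to 0.0919 for Mrps15, -0.0625 to 0.00795 for Mrps30 and -0.0677 to 0.0148 for Mrps36. The cause was not tested. Mrps34, the lowest member, still had 137 or more normalized counts in each library.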

Other observations

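Among 16092 genes outside the family, those whose log2 values followed the mean of the standardized members most closely over the 6 libraries were Id3 and Id1, inhibitors of basic helix-loop-helix transcription factors, the zinc finger gene Zfp622, X2310039H08Rik and Gm13226. Id3 had 5001, 3833 and 4420 normalized counts in CAF_CM libraries and 4866, 4584 and 4559 in control libraries. Id1 had 3493, 2698 and 3170 in CAF_CM libraries and 3534, 3261 and 3265 in control libraries. In both genes CAF_CM replicate 2 was the lowest of all 6 libraries, as it was for the mean of the members, and the groups overlapped. These genes were picked for their likeness, which is given as a description with no test.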
